A study of Mus musculus with 16 samples.

Results

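Recombinant IL1β given for 5 weeks was compared with vehicle in *Tet2*-KO bone marrow by single cell RNA sequencing, with the mouse as the replicate. The members were all cells of the 4 *Tet2*-KO single cell RNA libraries that had at least 750 detected genes and at most 10% mitochondrial UMIs (unique molecular identifiers, 1 per captured transcript). These were 46129 of the 94917 cells kept over the 8 libraries of the series, and 30343 of them were assigned by hashtag to 1 of 8 *Tet2*-KO mice. The animals were C57BL/6 mice in which Vav-Cre, active throughout the blood system, had deleted floxed *Tet2* in blood cells of every lineage. In all, 4 received 500 ng of IL1β per day by intraperitoneal injection for 5 weeks and 4 received vehicle; the age is given as 6-12 weeks in the labels. The WT mice of the same experiment were Tet2 fl/fl without the Cre, so Cre itself differs between genotypes. Each library held lineage-depleted (Lin-) marrow of 2 hashtagged mice, so each group rested on 2 libraries. By *Xist* and Y-linked UMIs, vehicle mice 1 and 2 were female and mice 3 and 4 male, while IL1β mice 1 and 2 were male and mice 3 and 4 female.

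IL1β binds the receptor pair IL1R1 and IL1RAP, which recruits MYD88, the IRAK kinases and TRAF6 and frees the transcription factor NF-κB from its inhibitor IκBα. NF-κB then switches on its own brakes, among them *Nfkbia* (IκBα itself), *Tnfaip3* (A20, a ubiquitin-editing enzyme) and *Tnip3* (a partner of A20), so the RNA of these genes is a common readout of ongoing IL1 signalling. In marrow the cytokine is known for driving stem and progenitor cells toward myeloid output, and TET2, an enzyme that oxidises methylcytosine, restrains inflammatory gene expression in myeloid cells.

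The promoters of these 3 feedback genes are shown because *Nfkbia* was called higher in more lineages than any other gene and the other two belong to the same feedback. Each run below is the 250 bases before the start site, read 5′ to 3′ on the strand of the gene, from RefSeq on GRCm38.p6; capitals mark matches, on either strand, to a 10-base NF-κB consensus. The windows lie at chr12:55492648-55492897 (minus strand) for *Nfkbia*, chr10:19015411-19015660 (minus) for *Tnfaip3* and chr6:65590148-65590397 (plus) for *Tnip3*.
Nfkbia: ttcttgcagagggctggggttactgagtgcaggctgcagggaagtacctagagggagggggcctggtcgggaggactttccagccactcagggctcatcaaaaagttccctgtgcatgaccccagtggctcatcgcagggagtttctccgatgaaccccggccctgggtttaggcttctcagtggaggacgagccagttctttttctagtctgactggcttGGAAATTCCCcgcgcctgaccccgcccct
Tnfaip3: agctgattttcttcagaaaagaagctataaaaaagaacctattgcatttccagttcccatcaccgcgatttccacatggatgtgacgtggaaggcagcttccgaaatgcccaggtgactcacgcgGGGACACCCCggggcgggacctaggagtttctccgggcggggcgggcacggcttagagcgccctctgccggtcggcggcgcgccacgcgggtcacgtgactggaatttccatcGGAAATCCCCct
Tnip3: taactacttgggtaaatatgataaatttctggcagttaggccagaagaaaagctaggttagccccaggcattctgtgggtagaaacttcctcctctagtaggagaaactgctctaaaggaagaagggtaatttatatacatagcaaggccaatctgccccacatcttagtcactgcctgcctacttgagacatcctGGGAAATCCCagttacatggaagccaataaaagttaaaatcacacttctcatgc
The match in *Nfkbia* began 29 bases before the start site, those in *Tnfaip3* 125 and 12 bases before it, and the one in *Tnip3* 54 bases before it. *Tnfaip3* has 2 such windows: the one with matches is shown, and the other holds none. Of 27025 genes with such a window, 8.23% held a match in any of their windows. Among the 16 NF-κB genes followed below, 9 of the 13 with a window held one. A match is a string of letters and no measurement of binding.

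The libraries held 12236 to 16963 barcodes and 8985 to 14573 kept cells, and their median depth was 5563 to 7363 UMIs per cell. Summed over its assigned cells, a mouse gave 12790227 to 35610205 UMIs, from 1259 cells (vehicle mouse 2) to 5575 (vehicle mouse 3). Cells without a hashtag made up 49.0% and 26.1% of the vehicle libraries and 31.3% and 14.3% of the IL1β libraries. They were unevenly spread over lineages. The erythroid progenitor (CFU-E) gate held 634 assigned IL1β and 1024 vehicle cells, against 1591 and 3660 with unassigned cells added. For granulocyte progenitors these were 3681 and 2047 against 4213 and 2638. Shares of assigned cells and whole-marrow sums below therefore rest on fewer erythroid cells than the libraries held. The assignment to mice depended on the hashtag rule. Vehicle mice 1 and 2 held 4214 and 1259 cells here, 62 and 7461 by a hashtag ratio and 4229 and 6848 by a mixture rule. IL1β mice 1 and 2 held 1426 and 4485, 4352 and 346, and 4122 and 4597. The cell numbers of mice 3 and 4 changed less. Pairs of *Tet2*-KO libraries shared 27 to 54 cell barcodes, at most 0.485% of the smaller library. Mitochondrial UMIs were 5.60%, 5.08%, 4.78% and 4.70% in IL1β mice 1 to 4 and 4.23%, 4.31%, 3.58% and 3.54% in vehicle mice 1 to 4, without overlap. Ribosomal protein genes took 25.2% to 27.4% of UMIs in the IL1β mice and 27.0% to 30% in the vehicle mice. The part of these differences in the results below was not tested.

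All values below are given for mice 1 to 4 of each group in that order, as CPM (UMIs of a gene per 1000000 UMIs of the mouse, after TMM scaling), n = 4 mice per group unless stated. *Tet2* itself stood at 76.0, 63.5, 62.8 and 59.2 CPM in the IL1β *Tet2*-KO mice and at 47.8, 47.0, 41.2 and 38.2 CPM in the vehicle *Tet2*-KO mice. The WT mice gave 52.6, 60, 55.9 and 49.2 CPM after IL1β and 37.1, 32.8, 43.7 and 46.6 CPM after vehicle. The counts come from the transcript's 3′ end and did not register the deletion, so they check no genotype. Within the *Tet2*-KO mice the remaining *Tet2* RNA was higher after IL1β (log2 difference 0.59, SE 0.11, adjusted p = 0.00141).

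The first question was which cells the treated marrow held. Each cell was placed by whole-UMI marker gates into 17 lineages beyond stem cells, which took 57.4% to 70.6% of a mouse's cells without the stem cell gate. Cells in several gates were left out. Gates that rest on fewer than 3 markers are named by them: *Flt3*+*Cd34*+ cells, *Mpo*+*Cd34*+ cells and *Gata1*+*Gata2*+ cells. In an unsupervised clustering over all 8 libraries the first and second of these fell mostly in the stem cell cluster (56.5% and 57.0%), with 30.8% and 22.7% in unnamed clusters, and the third mostly in the erythroid progenitor (CFU-E) clusters (65.0%), and 72.9% of the monocyte progenitor gate fell in the monocyte cluster. For some gates the clusters differed between the groups. An unnamed cluster led by *Tnip3*, *Cxcl2* and *Tnf* held 58.9% of the *Flt3*+*Cd34*+ cells, 40% of the *Mpo*+*Cd34*+ cells and 59.6% of the *Dntt*+ lymphoid progenitors of the IL1β mice and none of those of the vehicle mice, of which 82.2% and 73.0% lay in the stem cell cluster and 80.8% in the lymphoid progenitor cluster. Erythroblasts lay mainly in the erythroblast cluster after IL1β (74.3%) and mainly in the CFU-E clusters after vehicle (54.5%).

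Monocyte-lineage cells and lymphoid progenitors made up a smaller share of the IL1β marrow. Monocyte progenitors were 8.06%, 6.00%, 4.85% and 5.53% of cells in the IL1β mice and 10.8%, 15.4%, 11.6% and 10.6% in the vehicle mice. Monocytes were 1.40%, 4.10%, 2.51% and 2.80% against 7.59%, 5.00%, 6.58% and 6.38%. Both groups were fully apart for both populations. Dendritic cells were 0.453% ± 0.11 against 1.10% ± 0.177 (mean ± SD), and *Dntt*+ lymphoid progenitors 0.631%, 0.847%, 0.414% and 0.639% against 2.66%, 0.953%, 3.25% and 2.69%. Plasmacytoid dendritic cells were 0.0223% ± 0.018 against 0.153% ± 0.0457, on 4 and 24 cells in all; IL1β mouse 1 had none, which allows a share of up to 0.21%.

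These 5 populations gave the smallest p that an exact two-sided permutation test of 4 mice against 4 can give (0.0286), and none of 17 passed after adjustment (adjusted p = 0.0971). An edgeR quasi-likelihood fit of the cell numbers called 6 of 17: those 5 lower, by -0.99 (monocyte progenitors, SE 0.33, adjusted p = 0.0287) to -2.38 (plasmacytoid dendritic cells) on the log2 scale, and basophils higher. These calls were not stable: 2 lineages were called without IL1β mouse 3 or 4 or vehicle mouse 1 or 3, 3 with thinned cells and none (0) with hashtags called by a ratio, and with clusters in place of gates the monocyte progenitor shares overlapped. Basophils were 3.23%, 11.5%, 16.0% and 9.50% against 4.13%, 1.99%, 4.43% and 6.76% (log2 ratio 1.21, SE 0.43, adjusted p = 0.0287; exact permutation p = 0.114), with IL1β mouse 1 inside the vehicle range. Granulocyte progenitors, at 32.6%, 14%, 29.9% and 28.4% against 14.1%, 23.1%, 13.4% and 9.27%, did not pass (log2 ratio 0.81, SE 0.35, adjusted p = 0.0721), and IL1β mouse 2 lay among the vehicle mice. This call depended on the setting: the share passed with libraries as replicates (1.00, adjusted p = 0.0164), with the pool number as a block (0.86, adjusted p = 0.0477) and with hashtags called by a mixture rule, where the mice did not overlap (1.01, adjusted p = 0.00769). The library and mixture settings also held the cells that had no hashtag under the main rule.

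**Figure D1:**
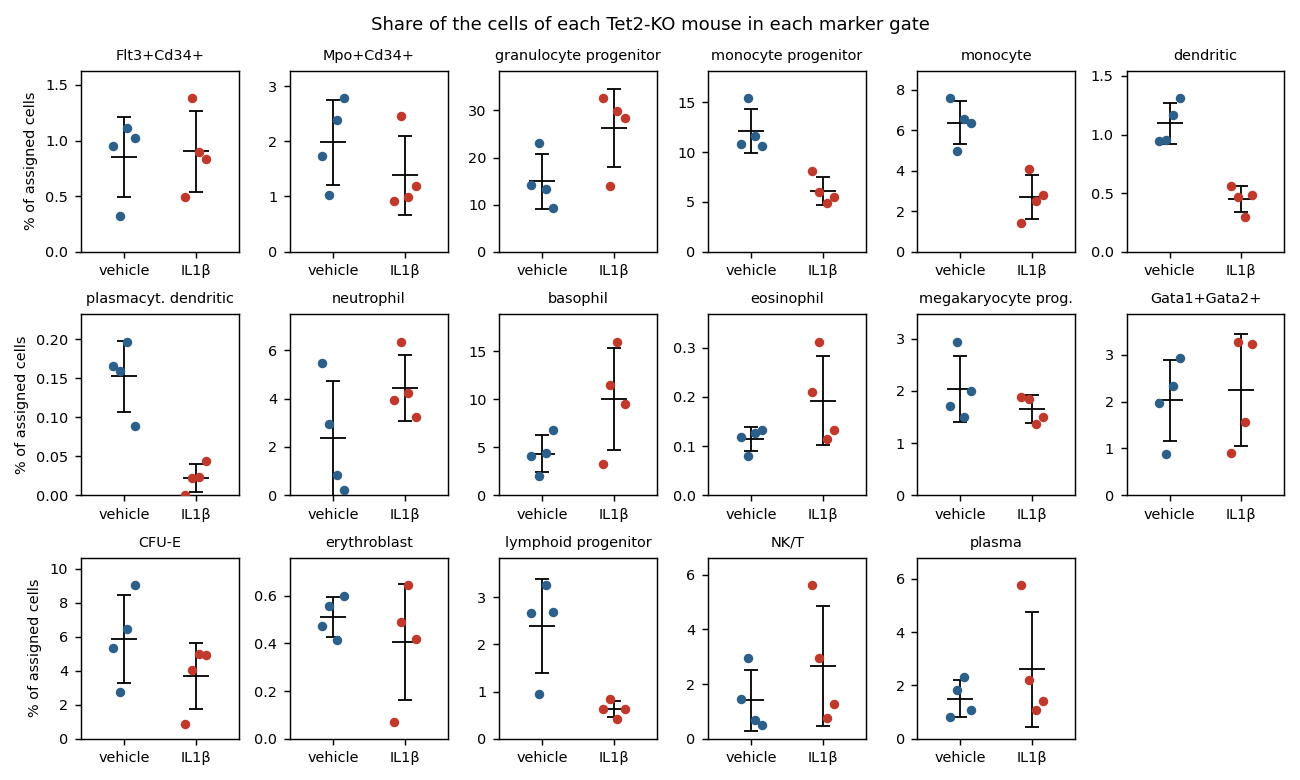
Share of assigned cells, in percent on a log axis, that fell in each marker-gated lineage, 1 point per *Tet2*-KO mouse. Monocyte progenitors, monocytes, both dendritic cell types and lymphoid progenitors are the 5 lineages whose IL1β mice all lie below the vehicle mice.

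Cells with at least 3000 UMIs were also thinned to 3000 UMIs, and the other cells were left out. The IL1β and vehicle mice stayed apart for monocyte progenitors, at 3.03%, 2.93%, 2.10% and 2.15% against 5.61%, 5.79%, 7.54% and 6.32%, and for lymphoid progenitors (0.493% ± 0.166 against 1.30% ± 0.45). Dendritic cells then overlapped and plasmacytoid dendritic cells numbered 0 and 2. Over the series the medians of these 2 gates were 2493 and 2102 UMIs per cell, so most of their cells fell below the limit. A gate reads RNA, so a smaller share cannot tell fewer cells from less marker RNA per cell. The granulocyte progenitor gate leaves out cells with any *Irf8* and the monocyte progenitor gate requires it, so these 2 shares are not independent. *Irf8* RNA was lower after IL1β (below), and its part in the 2 shares was not tested. For no share did the response differ between *Tet2*-KO and WT marrow at the threshold by the interaction term of the edgeR fit (adjusted p of at least 0.921). The standard errors of this term ran from 0.47 (monocyte progenitors) to 1.15 (NK and T cells) on the log2 scale, so differences of that size could be missed.

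Summed over all cells of a mouse, IL1β moved many genes in both directions. Of 13146 genes tested with edgeR, 2076 were higher (15.8%) and 2134 lower (16.2%), 32.0% in all at an adjusted p under 0.05, and the median log2 difference over all genes was 0.009. In 4024 genes (30.6%) the 4 IL1β mice did not overlap the 4 vehicle mice. With the 4 libraries in place of the 8 mice, 568 genes were higher and 358 lower, so 61.3% of the calls were higher against 49.3% with mice. Here and below, the library setting also took in the cells without a hashtag, so the cell set changed together with the replicate. CFU-E cells, for example, averaged 14.5% of the vehicle libraries and 5.89% of the assigned cells of the vehicle mice. Mice 1 and 2 of a group shared 1 library, as did mice 3 and 4. Whole-marrow gene list counts with mice as replicates are to be read against the 15.8% higher and 16.2% lower over all genes. The count with libraries as replicates is given beside most of them. For these library counts the background is smaller, at the 568 genes higher and 358 lower, and the 15.8% and 16.2% do not apply. Within lineages the percentages over all genes are likewise those with mice as replicates, and none is given for libraries.

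Of the NF-κB feedback inhibitors, 3 were among the 10 genes named for the largest rise. *Nfkbia* read 285.2, 185.9, 288.8 and 179.3 CPM in the IL1β mice and 46.9, 36.3, 42.9 and 36.2 CPM in the vehicle mice (log2 2.53, SE 0.29, adjusted p = 0.000199). *Tnfaip3* read 67.0, 59.4, 65.9 and 41.3 against 14.1, 9, 4.43 and 5.83 CPM (2.81, SE 0.32, adjusted p = 0.000171), and *Tnip3* 20.2, 10.4, 24.0 and 14.6 against 2.21, 1.47, 1.79 and 1.74 CPM (3.23, SE 0.49, adjusted p = 0.000499). All 4 treated mice lay well above all 4 vehicle mice for each of these 3 genes. Of 16 measured NF-κB subunits and inhibitors 11 rose and 1, *Nfkbib*, fell (-0.35; 8 and 0 with libraries as replicates), with a list median of 0.59 against 0.009 over all genes. *Birc3*, an inhibitor of apoptosis, rose by 1.16 and *Nfkbiz*, a nuclear co-activator of secondary response genes, by 1.82 (SE 0.44, adjusted p = 0.00631; 0.0569 with libraries as replicates).

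Of 17 measured IL1 ligands, receptors and adaptors 7 rose and none fell (median 0.35; 3 rose with libraries as replicates), led by *Irak3*, a brake on IRAK signalling, at 35.3, 31.7, 40.4 and 35.2 against 25.5, 26.9, 15.8 and 16.6 CPM (0.76, SE 0.17, adjusted p = 0.00341). The adaptor ubiquitin ligase *Traf6* rose by 0.35 (SE 0.09) and the co-receptor *Il1rap* by 0.66 (SE 0.19). The receptor *Il1r1* did not pass (0.09, adjusted p = 0.838).

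*Saa3*, an acute phase protein, had the largest difference of the named genes, at 6.73, 1.68, 28.1 and 28.9 against 0.457, 0.409, 0.782 and 0.198 CPM (log2 5.09, SE 0.91, adjusted p = 0.00106). Treated mice 1 and 2, of 1 library, lay well below treated mice 3 and 4, of the other, and all 4 lay above the vehicle mice. *Gbp5*, an inflammasome-promoting GTPase, read 30.7, 10.4, 33.3 and 16.6 against 4.11, 4.91, 3.39 and 1.70 CPM (2.71, SE 0.53). The cytokine gene *Tnf* read 20.9, 13.3, 31.2 and 16.7 against 9.14, 6.71, 2.70 and 2.97 CPM (1.95, SE 0.44, adjusted p = 0.00397), and the neutrophil chemokine *Cxcl2* 33.6, 16.7, 31.5 and 14.7 against 11, 6.54, 0.717 and 0.594 CPM (2.38, SE 0.79, adjusted p = 0.0313). For both, vehicle mice 1 and 2 lay above vehicle mice 3 and 4, and with libraries as replicates neither passed (adjusted p = 0.0517 and 0.128). *Thy1*, a surface glycoprotein, rose by 1.85 (SE 0.31, adjusted p = 0.000852).

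*Vcam1*, an adhesion molecule that also marks marrow macrophages, rose from 15.1, 19.3, 8.80 and 2.02 to 50.9, 21.1, 56.9 and 43.7 CPM (1.96, SE 0.47, adjusted p = 0.00583). The 6 macrophage markers summed to 27.2 to 61.2 CPM in the IL1β mice and 4.23 to 24.4 in the vehicle mice, but without *Vcam1* they summed to 4.42 to 8.05 and 2.30 to 10.5. Within granulocyte progenitors *Vcam1* rose as well (below). B cell markers summed to 32.1 to 60.2 against 31.4 to 45.0 CPM and stromal markers to 15.9 to 23.0 against 13.5 to 17.1; their part in the differences was not tested.

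**Figure D2:**
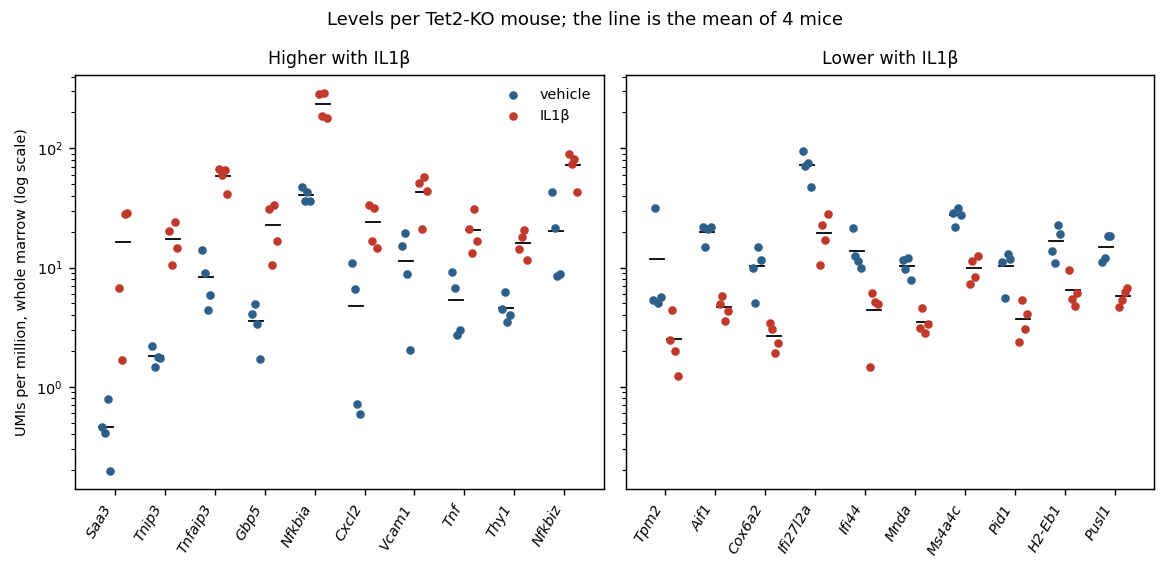
Scaled CPM in whole Lin- marrow for the 10 genes with the largest rise and the 10 with the largest fall by the naming rule, 1 point per *Tet2*-KO mouse on a log axis. By the rule the IL1β and vehicle mice do not overlap; *Nfkbia* sits between 179.3 and 288.8 after IL1β and between 36.2 and 46.9 after vehicle.

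Among the 10 genes named for the largest fall, *Aif1*, a macrophage and monocyte calcium-binding protein, read 4.91, 5.78, 3.58 and 4.34 in the IL1β mice and 21.7, 15, 20.9 and 21.9 CPM in the vehicle mice (-2.10, SE 0.31, adjusted p = 0.000428). *Ifi27l2a*, an interferon-induced mitochondrial protein, read 10.5, 22.7, 17.1 and 28.0 against 95.5, 71.3, 75.1 and 47.6 CPM (-1.87, SE 0.33, adjusted p = 0.00097). The same rule named *Cox6a2*, *Ifi44*, *Mnda*, *Ms4a4c*, *Pid1*, *Pusl1* and *Tpm2*; *Tpm2*, a tropomyosin, did not pass with libraries as replicates (adjusted p = 0.0652) and rested largely on vehicle mouse 2 (31.4 CPM, against 4.99 to 5.63 in the others and 1.24 to 4.42 in the IL1β mice).

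Of 11 measured genes of MHC class II presentation 7 fell and none rose (median -0.78), and with libraries as replicates 4 fell and 1 rose. *H2-Eb1* read 9.54, 5.46, 4.76 and 6.17 against 13.7, 11, 22.8 and 19.2 CPM (-1.40, SE 0.24, adjusted p = 0.000893). *Ctss*, the protease that trims the invariant chain, fell by 0.90 on the log2 scale (SE 0.19) and *H2-Aa* by 1.26 (SE 0.28). Inside the monocyte gate, where 1.8% of all genes fell, none of 6 measured members passed (median 0.14). That gate leaves out cells rich in *H2-Aa* or with any *Cd209a*, in both groups. Its count therefore cannot show whether class II RNA fell in monocytes. In monocyte progenitors (13.6% of all genes) 3 of 7 fell with a list median of 0.06, in granulocyte progenitors (19.3%) 2 of 6 and in basophils (4.12%) 2 of 7, and with libraries as replicates 0, 1 and 0. The dendritic cell and monocyte shares given above were also smaller, and their part in the whole-marrow list was not tested.

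Of 22 interferon response genes 6 fell and 2 rose (median -0.28; 5 and 1 with libraries as replicates). Within lineages the list medians went both ways, from -0.35 in erythroblasts and plasma cells to 0.42 in *Mpo*+*Cd34*+ cells. Their median over the lineage fits was 0.04. In granulocyte progenitors 3 of 15 rose and 5 fell (median -0.1), where 17% and 19.3% of all genes did. In CFU-E cells 3 of 16 rose and 2 fell (median 0.22), against 5.03% and 8.53% of all genes. In monocyte progenitors 3 of 14 rose and 2 fell (median 0.07), against 10.9% and 13.6%. With libraries as replicates these counts were 2 and 4, 1 and 3, and 1 and 2. Monocyte and dendritic cell shares were also smaller, and their part in the whole-marrow fall was not tested. *Bst2*, tetherin, read 79.4, 93.4, 85.5 and 98.1 against 156.5, 130.5, 190.1 and 175 CPM (-0.87, SE 0.14, adjusted p = 0.000581), and *Isg15*, a ubiquitin-like modifier, fell by 1.15 (SE 0.24), while the GTPase *Gbp3* rose by 0.80 (SE 0.14). Among 16 myeloid transcription factors 4 rose and 3 fell, near the share over all genes, and 3 and 1 with libraries as replicates. *Irf8*, which directs monocyte and dendritic cell fate, read 141.4, 133.1, 86.6 and 98.8 against 257.8, 187.1, 242.5 and 300.0 CPM (-1.10, SE 0.25, adjusted p = 0.00452). *Gfi1*, which directs granulocyte fate, rose by 1.13 (SE 0.28, adjusted p = 0.00747) and *Cebpa*, needed for the granulocyte-monocyte progenitor stage, by 0.43 (SE 0.09).

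Of 15 basophil and mast cell effectors 11 rose and 1, *Fcer1g*, fell (median 1.06; 12 and 0 with libraries as replicates). *Hdc*, which makes histamine, read 93.9, 131.2, 110.8 and 77.8 against 68.2, 59.3, 41.5 and 36.9 CPM (1.01, SE 0.19, adjusted p = 0.00139). Inside the basophil gate, where 1.93% of all genes rose, none of the 9 members measured and not used by the gate passed, with a list median of 0.02. Outside it, 3 of 6 rose in monocyte progenitors, where 10.9% of all genes rose, 2 of 7 in neutrophils (3.49% of all genes) and 2 of 9 in granulocyte progenitors (17% of all genes), and 1, 1 and 0 with libraries as replicates. The basophil share was also larger after IL1β, and its part in the whole-marrow list was not tested.

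Of 17 lymphoid priming genes 4 fell and 3 rose (median -0.05), near the 16.2% and 15.8% over all genes, and with libraries as replicates none fell and 2 rose. *Dntt*, the enzyme that adds bases at antigen receptor joints, read 10.1, 10.5, 2.77 and 4.93 against 31.7, 9.57, 40.2 and 34.9 CPM (-2.08, SE 0.51, adjusted p = 0.00643), with vehicle mouse 2 inside the IL1β range. *Rag1*, the recombinase, was at 0 to 0.26 CPM after IL1β and 0 to 1.76 after vehicle. The transcription factor *Ikzf3* rose by 1.46 (SE 0.38).

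Of 12 heat shock chaperones 6 fell and none rose (median -0.38). *Hspa8*, the constitutive HSP70, read 1291.8, 1589.3, 1507.0 and 1505.4 against 2115.1, 1789.7, 3015.6 and 2688.6 CPM (-0.71, SE 0.14, adjusted p = 0.00161), and the mitochondrial chaperonins *Hspe1* and *Hspd1* fell by 0.51 (SE 0.10) and 0.59 (SE 0.13). With libraries as replicates none of the 12 passed in whole marrow, and the IL1β mice were also those with the higher mitochondrial percentages given above.

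Of 16 JAK-STAT mediators and feedback genes 4 rose and none fell (median 0.34; 1 rose with libraries as replicates): *Cish*, a STAT5-induced inhibitor, read 8.97, 7.40, 6.88 and 5.78 against 2.88, 2.21, 2.22 and 1.98 CPM (1.63, SE 0.30, adjusted p = 0.00115), and *Stat3* rose by 0.50 (SE 0.13). Of 20 growth factor and cytokine receptors 6 rose and 2 fell (median 0.08), or 4 and 1 with libraries as replicates. *Kit*, the stem cell factor receptor, read 124.0, 132.3, 104.3 and 110.3 against 84.8, 73.9, 90.9 and 84.8 CPM (0.49, SE 0.08, adjusted p = 0.00086), while *Csf1r*, the M-CSF receptor of monocytes, fell by 0.69 (SE 0.18).

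Of 22 neutrophil granule and alarmin genes only *Anxa1*, annexin A1, passed (0.80, SE 0.24, adjusted p = 0.0193), although the list median was 0.59; *S100a8* averaged 7265.3 ± 950.0 against 4838.5 ± 4537.2 CPM (SD) and the vehicle mice alone spanned the difference. Of 19 erythroid genes 5 fell (median -0.62), among them *Blvrb* (-1.23, SE 0.36) and the globins, and none of 15 megakaryocyte genes passed despite a median of -0.97. None of 19 AP-1 and immediate early genes passed (median 0.12). In the cell cycle, 5 of 20 S phase genes fell and 1 rose, with *Tyms*, thymidylate synthase, falling by 0.64 (SE 0.12), and 3 of 20 G2M genes fell and 1 rose. Glycolysis had 2 of 16 in each direction and DNA methylation enzymes 3 of 12 higher, *Tet2* itself, *Gadd45b* and *Idh1*. Of 16 homing and adhesion genes 3 rose, *Vcam1*, *Cxcr4* (0.49, SE 0.12) and *Cxcr2* (0.72, SE 0.26), and *Itgb7* and *Selplg* fell. Over all genes 15.8% rose and 16.2% fell, so the G2M, glycolysis and homing counts were near or below that background. With libraries as replicates 1 erythroid gene, 1 S phase gene and no G2M gene fell, and 1 glycolysis gene, 1 DNA methylation gene and 2 homing genes rose.

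Within lineages the same contrast was refitted on the UMIs of each gate, in 15 of 17 lineages with at least 3 mice a group. Of 11095 genes tested in at least 1 of them, 4745 were called in at least 1, 2174 in 1 only and 21 in opposite directions in different lineages. The share of tested genes called ran from 0.0% in dendritic cells and 0.478% in plasma cells to 36.3% in granulocyte progenitors; the granulocyte progenitor gate held 5728 cells and the dendritic cell gate 232. Across many lineages, 15 genes were higher and 75 lower in at least 8 of 15.

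**Figure D3:**
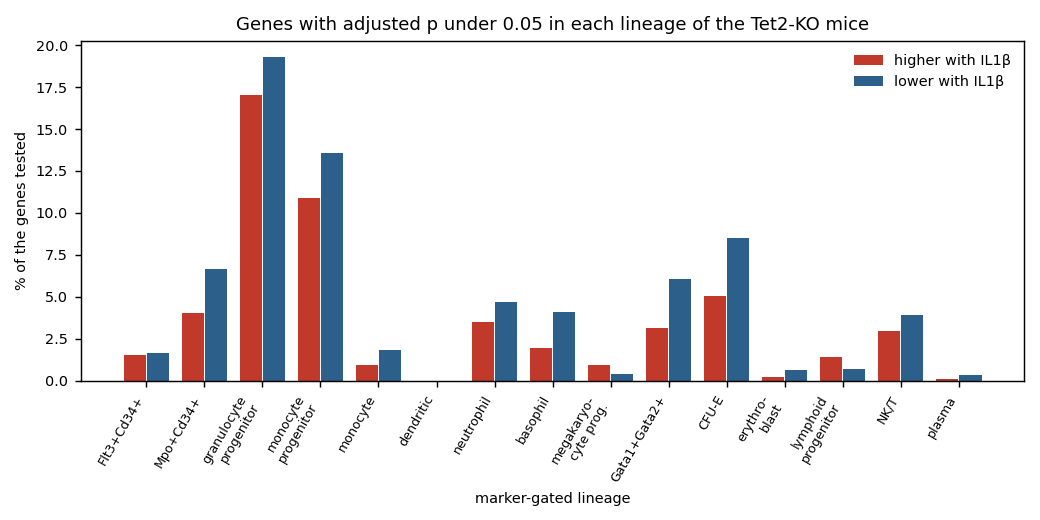
Genes called higher and lower at an adjusted p under 0.05 in each lineage, as a percent of the genes tested there, IL1β against vehicle in *Tet2*-KO mice. Granulocyte progenitors (17% higher, 19.3% lower) and monocyte progenitors (10.9% and 13.6%) stand above the other lineages.

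*Nfkbia* was called higher in 13 of 15 lineages. Where it passed, the difference was smallest in mature or granulocytic cells: 1.02 in neutrophils and in basophils, 1.38 in monocytes and 1.46 in granulocyte progenitors, on the log2 scale. It was largest in megakaryocyte progenitors (5.06, SE 0.76), at 1162.4, 330.9, 1493.8 and 1109.5 against 22.6, 19.0, 54.5 and 27.0 CPM. *Mpo*+*Cd34*+ cells read 1036.3, 282.7, 1021.6 and 656.4 against 27.4, 41.3, 58.0 and 35.4 CPM (4.11, SE 0.54). In each of these IL1β mouse 2 was the lowest treated mouse and still several-fold above every vehicle mouse. *Nfkbia* rose in erythroid cells as well, by 3.41 in CFU-E cells and 3.58 in erythroblasts. It did not pass in dendritic cells (1.66, adjusted p = 0.164) or plasma cells (0.33, adjusted p = 0.537).

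*Tnfaip3* was called higher in 11 of 14 lineages, with log2 differences of 0.59 to 5.43, and did not pass in basophils (adjusted p = 0.716), NK and T cells (0.23) and plasma cells (0.288). *Tsc22d3*, the glucocorticoid-induced leucine zipper GILZ, was higher in 11 of 15 lineages (median 1.42). In granulocyte progenitors it read 59.1, 61.6, 54.7 and 52.8 against 32.3, 25.8, 28.6 and 20.9 CPM (1.06, SE 0.13, adjusted p = 9.5e-06). The circadian and glucocorticoid-responsive gene *Per1* was higher in all 8 lineages where it was tested (median 1.51), and *Ccng2*, a cyclin that restrains the cycle, in all 10 (median 1.51). *Zfp36l2*, an RNA-binding protein that shortens messenger life, was higher in 11 of 15, *Rsrp1* and *Serinc3* in 10, *Cd69*, an early activation antigen, in 8 of 14 and *Ier3* in 8 of 11.

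**Figure D4:**
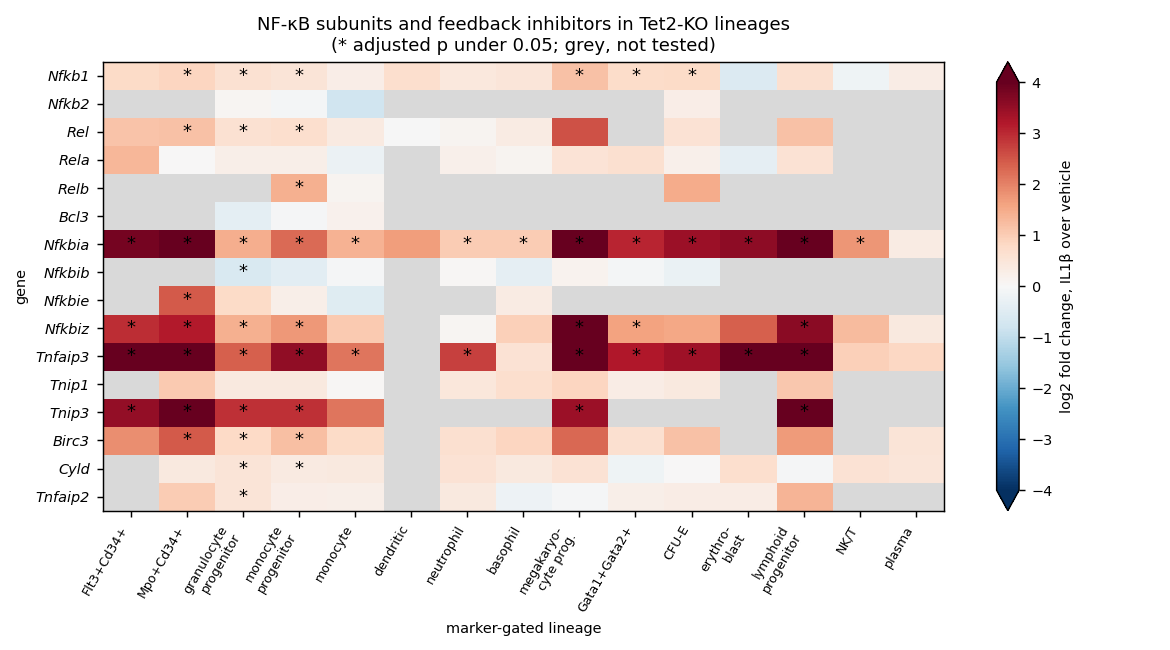
Log2 difference, IL1β over vehicle in *Tet2*-KO mice, of 4 NF-κB feedback genes in each lineage where they were tested, with bars of 1 standard error and filled points for an adjusted p under 0.05. *Nfkbia* runs from 0.33 in plasma cells to 5.06 in megakaryocyte progenitors.

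*Ubb*, polyubiquitin, was lower in 13 of 15 lineages (median -0.96), and in granulocyte progenitors it read 211.8, 223.3, 289.0 and 280.5 against 382.9, 443.4, 611.6 and 600.6 CPM (-1.02, SE 0.16, adjusted p = 6.82e-05). The ribosomal protein genes *Rpl21* (13 of 15, median -0.63), *Rps15a* (12) and *Rpl28* (11) were among the genes lower in the most lineages. *Atp5g1*, a subunit of the ATP synthase ring, was lower in 11, and *Polr2j*, *Nudc*, *Ppib* and *Dctpp1* in 10. With libraries as replicates the genes were called in fewer lineages: of those that rose, *Nfkbia* in 12, *Tnfaip3* in 10, *Tsc22d3* in 9, *Zfp36l2*, *Ier3* and *Cd69* in 7, *Ccng2*, *Rsrp1* and *Per1* in 6 and *Serinc3* in 4, and of those that fell, *Polr2j* in 8, *Nudc* in 6, *Atp5g1* and *Dctpp1* in 5, *Rps15a* and *Ppib* in 4, *Ubb* and *Rpl21* in 3 and *Rpl28* in 2. Of the 10 genes higher in the most lineages 8 had a promoter window and 3 of these held an NF-κB match, against 0 of 8 for the genes lower in the most lineages.

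**Figure D5:**
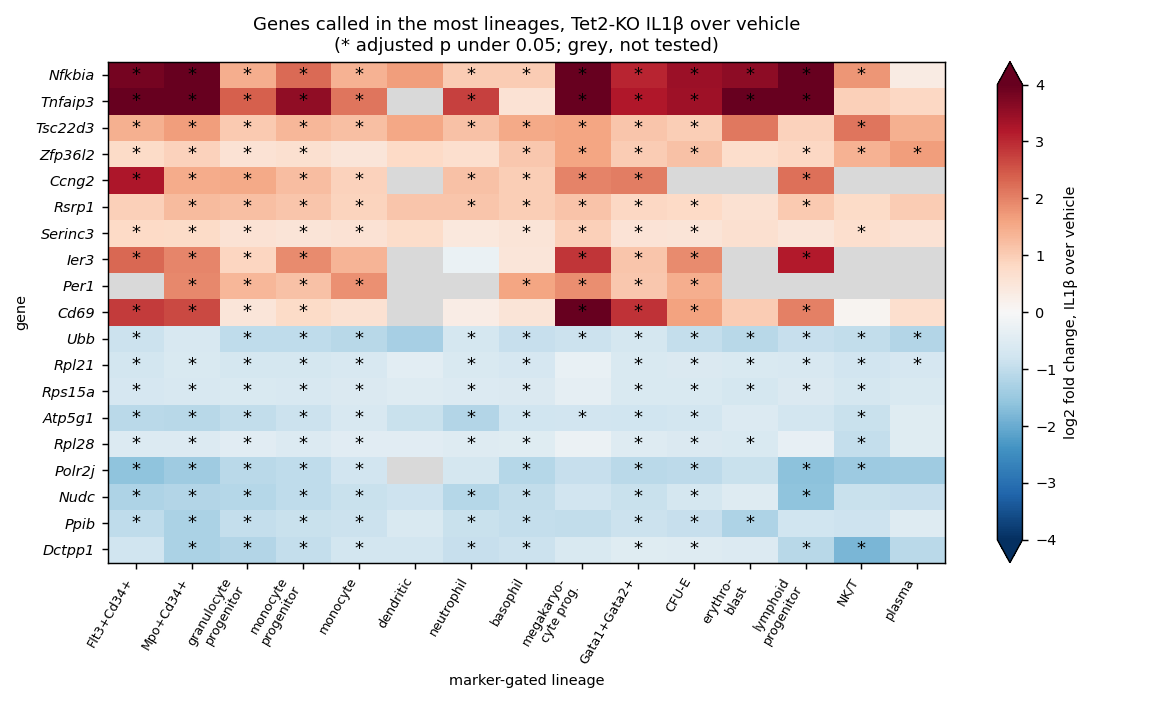
Log2 difference, IL1β over vehicle in *Tet2*-KO mice, of the 10 genes called higher and 9 of the 10 called lower in the most lineages, by lineage; marked cells passed an adjusted p under 0.05. *Nfkbia* and *Ubb* were each called in 13 of 15 lineages.

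Granulocyte progenitors, the *Elane*+*Ms4a3*+ cells that make primary granules, gave the most calls: 1747 of 10262 genes higher (17%) and 1978 lower (19.3%). By the naming rule *Nfkbia*, *Vcam1* and *Lcn2* led the rise. *Vcam1* read 108.4, 88.2, 127.5 and 107.5 against 58.5, 55.0, 26.7 and 15.5 CPM (1.45, SE 0.25, adjusted p = 0.00016). *Lcn2*, the iron-scavenging lipocalin of secondary granules, read 65.1, 44.4, 111.8 and 118.4 against 34.9, 34.6, 33.3 and 27.4 CPM (1.40, SE 0.34, adjusted p = 0.00301). Of 15 NF-κB genes 9 rose and 1 fell (median 0.60 against 0.024 over all genes), with *Nfkb1* up by 0.60 (SE 0.10) and *Rel* by 0.62 (SE 0.11). Of 15 homing genes 7 rose and 1 fell, and 3 rose with libraries as replicates.

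In the same cells *Sdf2l1*, an endoplasmic reticulum chaperone partner, read 67.8, 68.7, 108.5 and 121.2 against 254.8, 239.2, 378.4 and 323.0 CPM (-1.70, SE 0.21, adjusted p = 1.08e-05). Of 11 heat shock genes 6 fell, none rose (median -0.66), and 6 of the 11 passed with libraries as replicates; *Hspd1* read 281.9, 386.3, 331.1 and 320.2 against 627.6, 569.4, 670.7 and 713.0 CPM (-0.97, SE 0.12, adjusted p = 8.82e-06). *Lyz2*, lysozyme, fell by 1.00 (SE 0.13) and *Ctss* by 2.31 (SE 0.28). *Hbb-bs* and *Hbb-bt*, the adult β-globins, were the other named genes that fell, and 10 of 18 erythroid genes fell in these cells (1 rose, *Fech*; 5 fell with libraries as replicates, where *Hbb-bt* had an adjusted p of 0.0636). Globin UMIs in all gates outside the erythroid ones ran at 88.9 to 328.4 CPM in the IL1β mice and 167.6 to 567.4 in the vehicle mice, and their part in the globin results was not tested.

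Monocyte progenitors had 1062 of 9768 genes higher (10.9%) and 1326 lower (13.6%); without vehicle mouse 3 or mouse 4 the calls fell to 1576 and 1565. *Saa3* read 14.9, 4.37, 88.4 and 116.7 against 0.742, 0, 1.72 and 0.627 CPM (adjusted p = 0.000102). Its vehicle levels are a few UMIs at most, since 1 UMI is worth up to 0.704 CPM, too near 0 for a fold. *Chil3*, the secreted lectin Ym1, read 119.2, 110.7, 275.5 and 288.7 against 56.2, 46.9, 19.6 and 6.59 CPM (2.64, SE 0.39, adjusted p = 0.0001). For both genes IL1β mice 3 and 4, of the second library, were highest. Of 19 granule and alarmin genes 6 rose and 3 fell (median 0.37; 4 and 0 with libraries as replicates): *Mmp8*, the neutrophil collagenase, rose by 1.53 (SE 0.26) and *Lcn2* by 1.71 (SE 0.31), while *Ctsg*, a primary granule protease, fell by 0.74 (SE 0.15). *Flt3*, a progenitor cytokine receptor, read 47.4, 54.6, 46.8 and 42.2 against 21.0, 18.4, 20.9 and 28.2 CPM (1.10, SE 0.15, adjusted p = 6.88e-05), one of 6 receptors of 16 that rose (3 with libraries as replicates). *Ifi27l2a* (-1.5, SE 0.27), *Sdf2l1* (-1.37, SE 0.19) and *Creld2* (-1.30, SE 0.18), another endoplasmic reticulum chaperone partner, led the genes that fell.

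Monocytes gave 77 of 8511 genes higher (0.905%) and 153 lower (1.8%). The count rested on few mice: it was 3 without vehicle mouse 3, 4 without vehicle mouse 4, 15 without IL1β mouse 2, 60 and 73 without IL1β mice 1 and 3, and 476 without vehicle mouse 1. *Chil3* read 887.8, 2070.1, 1228.2 and 2127.8 against 665.1, 833.0, 373.5 and 85.5 CPM (1.74, SE 0.46, adjusted p = 0.0368). *Per1* read 37.0, 58.0, 33.3 and 31.1 against 19.0, 10.6, 10.6 and 4.70 CPM (1.84, SE 0.35, adjusted p = 0.0152). With libraries as replicates neither passed (adjusted p = 0.142 and 0.151), and *Chil3* did not pass in DESeq2 either (0.163). *Nop16*, *Upb1* and *Clec4b1*, a dendritic cell lectin, were the named genes that fell, and with libraries as replicates none of the 3 passed (adjusted p of 0.142 to 0.151). In dendritic cells none of 2189 genes passed in edgeR (0.0%), with 247 at an unadjusted p under 0.05, and DESeq2 called 6.

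Neutrophils gave 223 of 6386 genes higher (3.49%) and 298 lower (4.67%; 8.16% in all) in 4 IL1β and 3 vehicle mice, vehicle mouse 4 having too few cells. Stefin A genes, inhibitors of cysteine proteases, were the 3 named genes that rose. *Stfa2l1* read 274.1, 216.8, 125.6 and 125.1 CPM against 40.7, 25.3 and 0 CPM (2.59, SE 0.51, adjusted p = 0.00634; 0.0638 in DESeq2). *Stfa1* read 48.1, 29.7, 253.9 and 125.1 CPM against 1.69, 0 and 0, too near 0 for a fold, and did not pass with libraries as replicates (adjusted p = 0.105); these genes are near-identical copies, so reads may be split among them. Of 13 homing genes 5 rose, among them *Cxcr2*, the receptor for CXCL2, at 134.7, 135.6, 124.3 and 102.7 against 78.8, 61.5 and 22.1 CPM (0.98, SE 0.24, adjusted p = 0.0159). *Itgam*, the integrin CD11b, rose by 0.83 (SE 0.21). Of 10 heat shock genes 6 fell (median -0.75). With libraries as replicates none of the homing genes rose and 1 heat shock gene fell. *Hba-a2*, *Ahnak* and *Ndufaf4* led the genes that fell, but *Hba-a2* turned sign with clusters in place of the gate (0.72) and *Ndufaf4* did not pass with libraries as replicates (adjusted p = 0.0812). Without vehicle mouse 2 or 3 the calls were 116 and 163, and without IL1β mice 1, 2 and 3 they were 306, 208 and 327.

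Basophils gave 163 of 8443 genes higher (1.93%) and 348 lower (4.12%; 6.05% in all), a count that fell to 1 without vehicle mouse 3, 4 without vehicle mouse 4, 86 without IL1β mouse 2 and 319 without IL1β mouse 3. *Thy1* read 51.6, 105.8, 144.7 and 82.7 against 17.5, 25.8, 21.5 and 29.7 CPM (2.12, SE 0.32, adjusted p = 0.00426) and also passed with libraries as replicates (adjusted p = 0.0121). *Tsc22d3* (1.53, SE 0.34) and *Gstm1*, a glutathione transferase (1.27, SE 0.30), rose, and *Rgs10* (-1.36, SE 0.28), *Lyz2* (-1.23, SE 0.34) and *Grpel1*, a mitochondrial co-chaperone (-1.20, SE 0.19), fell. Of these 5 only *Lyz2* passed with libraries as replicates (adjusted p = 0.0369, against 0.115 for the others), and it did not pass in DESeq2 (adjusted p = 0.165). *Lyz2* is also a monocyte gene, the monocyte shares were smaller in the same mice, and the part of free RNA in its level was not tested.

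In *Flt3*+*Cd34*+ cells, from 3 mice a group and mostly in different clusters in the 2 groups (above), 49 of 3266 genes were higher (1.5%) and 54 lower (1.65%; 3.15% in all). *Cxcl2* stood at 80.8, 438.3 and 260.8 CPM in IL1β mice 2 to 4 and at 0 in the 3 vehicle mice, whose 404305 UMIs allow up to 7.42 CPM. *Wfdc17*, a secreted antiprotease of myeloid cells, read 60.6, 86.1 and 33.7 against 703.2, 382.1 and 306.8 CPM (-2.89, SE 0.34, adjusted p = 4.05e-05). *Hbb-bs* was also named as lower and rested on vehicle mouse 4 (548.5 CPM, against 20.7 and 63.7); it did not pass in DESeq2 (adjusted p = 0.0719) or with libraries as replicates (0.649). The calls were 10 without vehicle mouse 3 and 10 without mouse 4, 179 without vehicle mouse 1, and 43, 46 and 65 without IL1β mice 2, 3 and 4.

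*Mpo*+*Cd34*+ cells, of which the unnamed cluster led by *Tnip3* held 40% after IL1β and none after vehicle, had 213 of 5316 genes higher (4.01%) and 353 lower (6.64%), or 240, 246 and 237 calls without IL1β mouse 2, vehicle mouse 3 or vehicle mouse 4. Of 12 NF-κB genes 8 rose and none fell (median 1.81 against 0.014 over all genes), and *Nfkbiz* read 494.0, 186.4, 794.6 and 338.2 against 119.9, 27.5, 21.5 and 24.3 CPM (3.18, SE 0.55, adjusted p = 0.00086). *Tnip3* read 180.7, 63.5, 252.8 and 127.3 against 6.85, 0, 0 and 2.21 CPM and *Cxcl2* 566.3, 43.0, 237.3 and 123.3 against 10.3, 27.5, 0 and 0 CPM; the vehicle levels are a few UMIs, since 1 UMI is worth up to 13 CPM, too near 0 for a fold. Of 17 AP-1 and immediate early genes 4 rose, among them *Junb* (1.66, SE 0.38), at 783.2, 620.7, 1124.8 and 485.4 against 568.6, 123.8, 105.2 and 123.8 CPM, with vehicle mouse 1 inside the treated range; DESeq2 called 1 of the 17. *Sdf2l1* read 12.0, 20.5, 36.1 and 27.8 against 89.1, 68.8, 118.1 and 112.8 CPM (-2.06, SE 0.28, adjusted p = 4.94e-05).

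*Dntt*+ lymphoid progenitors, from 3 IL1β and 4 vehicle mice and likewise mostly in different clusters (59.6% of the IL1β cells in the unnamed cluster led by *Tnip3*, 80.8% of the vehicle cells in the lymphoid progenitor cluster), had 61 of 4368 genes higher (1.4%) and 30 lower (0.687%; 2.08% in all). *Tnf* read 99.9, 381.8 and 353.7 against 10.1, 18.3, 10.8 and 11.2 CPM (adjusted p = 0.000376). The vehicle levels are again a few UMIs, as 1 UMI is worth up to 16.7 CPM here. *Nfkbiz* and *Gbp5* also passed as higher. *Myl10*, a myosin light chain that marks this gate, read 27.8, 0 and 26.2 against 428.6, 146.1, 174.3 and 133.9 CPM (-3.38, SE 0.83, adjusted p = 0.0275; 0.108 in DESeq2). The calls were 19 and 57 without IL1β mice 3 and 4, and 41 and 40 without vehicle mice 3 and 4.

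Megakaryocyte progenitors had 64 of 6782 genes higher (0.944%) and 28 lower (0.413%). *Cd69* read 732.7, 245.6, 1597.2 and 883.9 against 36.5, 9.50, 39.5 and 14.5 CPM (5.11, SE 0.70, adjusted p = 0.0012). *Zfp36l1*, an RNA-binding protein of the immediate early list, read 202.0, 161.3, 188.9 and 162.2 against 71.3, 74.6, 65.8 and 72.7 CPM (1.32, SE 0.15, adjusted p = 0.000369). *Hba-a1* (-3.14, SE 0.62), *AY036118* (-1.94, SE 0.26) and *Cited4* (-1.93, SE 0.40) led the genes that fell. Leaving out 1 mouse moved the calls to between 13 (without IL1β mouse 3) and 162 (without vehicle mouse 2), and to 18 to 28 without IL1β mouse 1 or 4 or vehicle mouse 1, 3 or 4.

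In the erythroid path, *Gata1*+*Gata2*+ cells had 253 of 8081 genes higher (3.13%) and 488 lower (6.04%; 9.17% in all), CFU-E cells 471 of 9365 higher (5.03%) and 799 lower (8.53%), and erythroblasts 11 of 4820 higher (0.228%) and 31 lower (0.643%; 0.871% in all). In *Gata1*+*Gata2*+ cells *Nfkbia* read 246.7, 140.1, 311.2 and 164.9 against 35.3, 23.7, 20.8 and 21.1 CPM (3.05, SE 0.32, adjusted p = 3.07e-06). In CFU-E cells 7 of 11 erythroid genes not used by the gate fell and 1 rose (median -0.69; 3 and 0 with libraries as replicates, 7 and 0 in DESeq2): *Blvrb*, biliverdin reductase B, read 543.5, 613.9, 823.2 and 709.6 against 989.3, 1029.3, 1232.4 and 1343.5 CPM (-0.76, SE 0.14, adjusted p = 0.00109). The leukocyte gene *Irf8* was low in CFU-E cells, at 13.6, 4.44, 12.0 and 10.2 against 35.8, 63.5, 25.5 and 32.2 CPM (-1.90, SE 0.34), and *Cd52* (-1.68, SE 0.32) and *Tyrobp* (-1.50, SE 0.32) were likewise lower. The monocyte shares of the same marrow were also smaller, and the part of free RNA from other cells in these low levels was not tested, so they are not read as a change of CFU-E cells. Without IL1β mouse 2, vehicle mouse 3 or vehicle mouse 4 the *Gata1*+*Gata2*+ calls were 263, 247 and 224 and the CFU-E calls 634, 519 and 481. In erythroblasts *Dusp8*, a phosphatase of stress kinases, rose by 1.81 (SE 0.40; DESeq2 adjusted p = 0.196) and *S100a10* fell by 2.27 (SE 0.45; adjusted p = 0.0676 with libraries as replicates), with 102 calls without vehicle mouse 1, 4 and 8 without vehicle mice 3 and 4, and 10 and 6 without IL1β mice 2 and 3.

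NK and T cells gave 73 of 2455 genes higher (2.97%) and 96 lower (3.91%), on 23 to 133 cells a mouse, where 1 UMI is worth up to 13.9 CPM. *Cish* read 160.6, 122.1, 54.0 and 173.0 against 6.04, 15.1, 10.6 and 0 CPM (3.87, SE 0.62, adjusted p = 0.00391). *Cd74*, the MHC class II invariant chain, read 133.8, 132.0, 269.8 and 173.0 against 6.04, 0, 21.1 and 35.2 CPM (3.52, SE 0.79, adjusted p = 0.0104), opposite in direction to the class II genes of whole marrow. *Ckb*, creatine kinase B, rose by 3.25 (SE 0.71), and *Ifitm3*, an interferon-induced antiviral protein, fell by 2.13 (SE 0.55; DESeq2 adjusted p = 0.0801). The calls were 75, 73 and 101 without IL1β mice 1, 2 and 4 and 109, 62 and 87 without vehicle mice 1, 3 and 4.

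Plasma cells had 4 of 3350 genes higher (0.119%) and 12 lower (0.358%). *Fcmr*, the IgM receptor, read 6.88, 7.23, 6.90 and 4.72 against 113.9, 106.2, 134.0 and 85.1 CPM (-4.01, SE 0.53, adjusted p = 0.0004). *Ltb*, lymphotoxin β, fell by 2.72 (SE 0.55; DESeq2 adjusted p = 0.154) and *Ms4a1*, CD20, by 1.44 (SE 0.31). *Runx2*, a transcription factor, read 58.5, 122.8, 82.8 and 99.2 against 38, 15.2, 12.8 and 31.9 CPM (2.12, SE 0.46, adjusted p = 0.0362), and *Zfp36l2* and *Wsb1* rose by 1.66 (SE 0.32) and 1.63 (SE 0.33), *Wsb1* passing neither in DESeq2 (adjusted p = 0.0746) nor with libraries as replicates (0.0692). One mouse decided most of these calls, which were 1, 2, 1 and 1 without IL1β mouse 1, IL1β mouse 3, vehicle mouse 3 and vehicle mouse 4.

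Whether *Tet2*-KO marrow responded differently from WT marrow was tested by the interaction of genotype and treatment over all 16 mice. In whole marrow none of 13146 genes passed in edgeR (0.0%; 407 at an unadjusted p under 0.05) or DESeq2 (363). In simulated counts the edgeR fit recovered 61.6% of interactions of log2 1 in whole marrow. In the lineages tried it recovered 16% (dendritic cells) to 67.3% (granulocyte progenitors), so differences of this size could be missed. The lineage fits gave a single gene, *Gm43291* in plasma cells, named here after its values were seen. This count was 1 to 10 with 1 mouse left out, 27 with clusters in place of gates and 227 without the filter on low counts. It read 144.5, 213.1, 131.0 and 151.1 against 151.8, 91.0, 79.8 and 95.8 CPM in *Tet2*-KO mice, and 51.8, 72.8, 31.4 and 53.4 against 220.1, 171.3, 234.0 and 150.1 CPM in WT mice (interaction 2.62, SE 0.37, adjusted p = 0.00105). The *Tet2*-KO difference itself did not pass (0.73, adjusted p = 0.202), and the WT mice fell without overlap.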

How the data were processed

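BM cells of *Tet2*-KO and WT mice were lineage depleted, hashtagged and sequenced as 3′ single cell RNA libraries, 2 mice per library. The deposited gene and hashtag matrices hold UMI counts, which the authors made by aligning reads to mm10 with Cell Ranger 3.1.0; Seurat 3.2.3 is also named in the submitters' processing notes. From these counts, cells with fewer than 750 genes or more than 10% mitochondrial UMIs were removed, and HTODemux (Seurat 5.3.0, R 4.3.3) assigned cells to mice and dropped hashtag doublets. No per-sample column was left unmapped.

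Whole-UMI marker gates defined 17 lineages. UMIs were summed per mouse and gate (at least 10 cells a mouse, 3 mice a group) and tested with edgeR 4.0.16 (filterByExpr, TMM, quasi-likelihood F-test, 16 mice with 4 group means, Benjamini-Hochberg adjusted p under 0.05 over all genes tested). Shares of cells were compared by an exact two-sided permutation test and by edgeR on the cell numbers; the smallest exact p for 4 mice against 4 is 0.0286. No interval was put on a single mouse's share; intervals and the 3-count limits for zeros cover counting error only. The edgeR test of UMI sums was tried on simulated counts in whole marrow, granulocyte and monocyte progenitors, monocytes, basophils, dendritic cells and lymphoid progenitors.

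Named genes were those called with mice that did not overlap and the largest differences: 10 a direction in whole marrow (mean CPM of at least 10 in the higher group), 3 a direction in each lineage (at least 30 CPM, gate genes left out), the 10 a direction called in the most lineages, and up to 4 members a list by adjusted p. Predicted genes, receptor segments, mitochondrial and sex-linked genes were left out. The members, gates and 19 gene lists were chosen with earlier results of these data known. Of the list genes, *Azu1*, *Cebpd* and *Mx2* were not among the features.

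Alternatives were DESeq2 1.42.0, no filter on low counts, *Xist* CPM as a covariate for sex, only the *Tet2*-KO mice, the 2 libraries of a group as replicates, a replicate block, each mouse left out, hashtags called by a ratio of 3, clusters (scanpy 1.11.5) in place of gates and cells thinned to 3000 UMIs; a hashtag mixture rule was added after seeing the data. The library and mixture settings also took in the cells that HTODemux left without a hashtag. Thinning left out cells with fewer than 3000 UMIs. Promoters came from RefSeq on GRCm38.p6. Some genes that the naming rules select are not reported here.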

Additional observations from a re-analysis of the deposited data

Results flagged for a closer look

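In 206 groups of 4 mice, 12 held 1 mouse whose gap to the others passed Dixon's critical value. For normally distributed values chance gives about 1 in 20 groups. The gap took a share of 0.976 of the range for *Tpm2* and 0.855 for *Aif1* among the vehicle mice of whole marrow, 0.856 for *Hba-a1* in vehicle *Mpo*+*Cd34*+ cells, 0.837 for *Creld2* in IL1β monocyte progenitors, 0.929 for *Clec4b1* in IL1β monocytes, 1.0 for *Cxcl2* in vehicle megakaryocyte progenitors and again 1.0 in vehicle lymphoid progenitors, 0.871 for *Sdf2l1* in vehicle *Gata1*+*Gata2*+ cells, 0.901 for *Nfkbia* in IL1β CFU-E cells, 0.866 for *Tnf* and 0.863 for *Myl10* in vehicle lymphoid progenitors, and 0.861 for *Fcmr* in IL1β plasma cells. For *Cxcl2*, vehicle mouse 1 stood at 3.48 CPM in megakaryocyte progenitors and 2.52 in lymphoid progenitors, and all other vehicle mice at 0. With zeros in all others any count gives 1.0, so the *Cxcl2* flags show no outlying mouse. *Nfkbia* in CFU-E cells stood at 312.6 CPM in IL1β mouse 3 against 97.8 to 119.1 in the other treated mice, all above the 13.8 to 21.2 of the vehicle mice.

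The response of *Gm43291* in plasma cells differed between *Tet2*-KO and WT mice by 2.62 on the log2 scale in the interaction test.

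Cells without a hashtag numbered 2808 and 1595 in the IL1β libraries and 5604 and 3808 in the vehicle libraries. They entered no comparison between mice under the main hashtag rule, but the mixture rule assigned them to mice. Of the 10 named whole-marrow genes that rose, 5 were higher in the hashtag-negative cells of both IL1β libraries than in both vehicle libraries, and of the 10 that fell, 6 were lower in both. The share of all genes so separated was not counted. These cells come from the same libraries in which the genes were chosen, so the counts are no independent check. *Nfkbia* read 325.4 and 171.6 CPM there against 29.9 and 12.2, and *Tnfaip3* 84.7 and 37.6 against 8.28 and 1.79. *Tnip3*, *Cxcl2*, *Vcam1*, *Tnf* and *Nfkbiz* overlapped, each being higher in the first IL1β library than in the second.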

How the results depend on the processing

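Gates held as few as 11 cells in a mouse, which limits the depth behind a lineage value, and leaving out 1 mouse moved most lineage counts by more than 1.5 times. In whole marrow the 4210 calls were 2992 to 4423 when 1 mouse was left out, 4482 with the pool number as a replicate block, 1738 with the hashtag ratio and 926 with the libraries as replicates; the cause was not tested. In whole marrow the direction of each list median held under DESeq2; within lineages 6 medians turned sign, among them homing genes in CFU-E cells (0.04 to -0.12) and glycolysis in *Gata1*+*Gata2*+ cells (0.07 to -0.15). Of 399 single genes followed through 6554 values, 6 reversed and 1207 lost the call, 638 of them with 1 mouse left out, 188 with libraries as replicates and 124 under the hashtag ratio.

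Counts of called genes that moved by more than 1.5 times, by setting, were as follows. DESeq2 gave 18 in *Flt3*+*Cd34*+ cells, 262 in *Mpo*+*Cd34*+ cells, 113 in monocytes, 6 in dendritic cells, 446 in *Gata1*+*Gata2*+ cells, 743 in CFU-E cells, 24 in erythroblasts, 98 in NK and T cells, 29 in plasma cells and 5 interactions over the lineages. The *Xist* covariate gave 21 in erythroblasts. Clusters in place of gates gave 2322 in the *Mpo*+*Cd34*+ class, 500 in monocyte progenitors, 2774 in monocytes, 228 in dendritic cells, 1772 in neutrophils, 395 in megakaryocyte progenitors, 17 in erythroblasts, 955 in NK and T cells, 71 in plasma cells and 27 interactions; no cluster stood for *Flt3*+*Cd34*+ or *Gata1*+*Gata2*+ cells, and the lymphoid progenitor cluster held 27 IL1β cells, too few to fit. The hashtag mixture, chosen after seeing the data, gave 325 in *Flt3*+*Cd34*+ cells, 968 in *Mpo*+*Cd34*+ cells, 441 in monocytes, 12 in dendritic cells, 927 in basophils, 342 in megakaryocyte progenitors, 2392 in CFU-E cells, 510 in erythroblasts, 318 in lymphoid progenitors, 25 in plasma cells and 3 interactions. The hashtag ratio gave 238 in *Flt3*+*Cd34*+ cells, 9 in dendritic cells, 28 in neutrophils, 51 in basophils, 52 in megakaryocyte progenitors, 86 in erythroblasts, 228 in lymphoid progenitors, 2 in plasma cells and 6 interactions. Without the filter there were 418 in monocytes, 20 in dendritic cells, 157 in megakaryocyte progenitors, 142 in erythroblasts, 174 in lymphoid progenitors, 80 in plasma cells and 227 interactions. With only the *Tet2*-KO mice there were 10 in monocytes, 123 in basophils, 49 in megakaryocyte progenitors and 27 in plasma cells. Libraries as replicates gave 293 in *Mpo*+*Cd34*+ cells, 1801 in granulocyte progenitors, 673 in monocyte progenitors, 2 in monocytes, 112 in neutrophils, 3 in basophils, 23 in megakaryocyte progenitors, 116 in *Gata1*+*Gata2*+ cells, 150 in CFU-E cells, 25 in erythroblasts, 154 in lymphoid progenitors, 52 in NK and T cells and 3 interactions.

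With 1 mouse left out, the calls ran from 10 to 179 in *Flt3*+*Cd34*+ cells, 237 to 707 in *Mpo*+*Cd34*+ cells, 2880 to 3682 in granulocyte progenitors, 1565 to 2521 in monocyte progenitors, 3 to 476 in monocytes, 0 to 0 in dendritic cells, 116 to 615 in neutrophils, 1 to 631 in basophils, 13 to 162 in megakaryocyte progenitors, 224 to 1020 in *Gata1*+*Gata2*+ cells, 481 to 1747 in CFU-E cells, 4 to 102 in erythroblasts, 19 to 130 in lymphoid progenitors, 62 to 223 in NK and T cells, 1 to 19 in plasma cells and 1 to 10 for the interactions. The log2 ratios of shares ran from -0.21 to 0.24 for *Flt3*+*Cd34*+ cells (-0.16 in another), 0.64 to 1.10 for granulocyte progenitors, -1.15 to -0.85 for monocyte progenitors, -1.5 to -1.03 for monocytes, -1.39 to -1.13 for dendritic cells, 0.90 to 1.51 for basophils, -0.09 to 0.39 for *Gata1*+*Gata2*+ cells (-0.08 in another) and -0.51 to 0.03 for erythroblasts, and edgeR called 2 to 6 lineages.

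Thinned to 3000 UMIs, with shallower cells left out, the monocyte (-1.01) and dendritic cell (-0.89) ratios lost the call, plasmacytoid dendritic cells (0 IL1β and 2 vehicle cells) could not be fitted and 3 lineages were called. With clusters in place of gates the ratio was -4.08 for lymphoid progenitors (-1.93 with gates) and -2 for dendritic cells (-1.30 with gates, and the mice then overlapped). Under the hashtag ratio no lineage was called (0): monocyte progenitors -0.93, monocytes -1.40, dendritic cells -0.97, plasmacytoid dendritic cells -2.17, basophils 0.99 and lymphoid progenitors -1.98, while *Flt3*+*Cd34*+ cells (-0.32), *Gata1*+*Gata2*+ cells (-0.03) and megakaryocyte progenitors (0.32) turned sign. Granulocyte progenitors were called at 1.01 under the mixture and 1.00 with libraries as replicates, where CFU-E cells (-0.84) were called and dendritic cells (-1.33) were not. As medians over the lineage fits, MHC class II stood at -0.14, interferon at 0.04 and receptors at 0.24. Single genes that turned sign did so with clusters: *Hba-a2* in neutrophils (0.72), *Flt3* in granulocyte progenitors (-0.23), *Id2* (-0.22) and *Tet1* (-0.03) in monocyte progenitors, *S100a9* in CFU-E cells (1.40) and *Vcam1* in neutrophils (-0.61).

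The labels number the mice of every group and do not say that a number marks a shared litter, batch or day. Same-numbered mice of the 2 treatments deviated together with correlations of 0.225, 0.099, 0.304 and 0.528, so 3 of 4 pairs were above 0.1, and 2 of 4 correlated best with their own number; same-numbered pools, of which there are 2 a group, correlated at 0.531. Since not every pair of mice was above 0.1, the mice were not treated as paired. With the pool number as a replicate block, 159 genes were called in *Flt3*+*Cd34*+ cells, 249 in megakaryocyte progenitors and 6 interactions, and the shares of granulocyte progenitors (0.86) and neutrophils (1.5) passed; counts in the other lineages stayed within 1.5 times.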

Other observations

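One cluster of 2893 cells matched no marker set and was led by *Tnip3*, *Cxcl2*, *Tnf*, *Nfkbiz*, *Pde4b*, *Gbp5*, *Ltb*, *Cd69*, *Dusp2* and *Sox4*. It held 6.94%, 3.50%, 9.48% and 7.36% of the assigned cells of the IL1β *Tet2*-KO mice and 0.0475%, 0%, 0% and 0% of those of the vehicle mice, where none allows up to 0.238%, 0.0538% and 0.0667%. In WT mice it held 0.140%, 8.85%, 7.52% and 5.77% after IL1β and at most 0.0261% after vehicle. The genes that define it are themselves higher after IL1β, so its size is a description of those genes and no count of a cell type.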
